A study of Homo sapiens with 6 samples.

Results

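The 9 genes described here are 5 gene models of the NME family (NME1, NME2, the readthrough NME1-NME2, NME3 and NME4) and 4 other genes reported to restrain metastasis (BRMS1, KISS1, NDRG1 and MTSS1). They were taken by gene symbol from the deposited expression table, which has 24580 rows, and all 9 were found in it. Expression was measured by RNA-seq in untreated LoVo cells, an established human colorectal cancer line labelled wildtype, and in LoVo-HM, which the submitters call a high-metastatic LoVo line. There are 2 groups of 3 libraries, 6 in all, and neither group was treated. The labels leave out how the LoVo-HM line was made, whether it is 1 clone, or whether the 3 libraries of a group came from separate cultures, so p-values measure the spread between these libraries, which may be technical.

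Nucleoside diphosphate kinases, the products of the NME genes, pass the terminal phosphate of one nucleoside triphosphate to a nucleoside diphosphate and so keep the supplies of the different nucleotides in step. NME1 was found through its low RNA in highly metastatic melanoma cells, and metastasis suppressors as a class are defined by loss-of-function and re-expression experiments in which they reduce spread without stopping growth of the primary tumour. The class is mixed in mechanism: BRMS1 belongs to a histone deacetylase complex, KISS1 encodes the precursor of a secreted peptide, NDRG1 is a cytoplasmic protein induced by hypoxia and iron loss, and MTSS1 bends membranes and organises actin.

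NDRG1 and MTSS1 were the members with the clearest loss in LoVo-HM, BRMS1 and NME4 were also lower, NME1 was slightly higher, and NME2 and NME3 did not pass the test. The NME1-NME2 readthrough was listed at 0 in each LoVo library and at 25.2 to 31.9 FPKM in LoVo-HM (fragments per kilobase of exon, scaled to the mapped fragments of the library, a level per length). KISS1 was listed at 0 in all 6 libraries. Of the 8 members with a mean of at least 0.5 FPKM, which were tested on the log2(FPKM + 1) scale with limma, 2 were higher and 4 lower at a Benjamini-Hochberg adjusted p under 0.05, and 2 did not pass. NME1-NME2, counted here as higher, passed that filter through its LoVo-HM values alone. Over all 14487 genes tested, 44.9% were called, 21.8% higher and 23.1% lower, so a call in itself does not set a member apart. In 6 of the 8 tested members, NME1-NME2 among them, the groups did not overlap, against 55.0% of all tested genes. The median log2 difference of the tested members was -0.15, beside 0.003 over all genes tested.

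**Figure D1:**
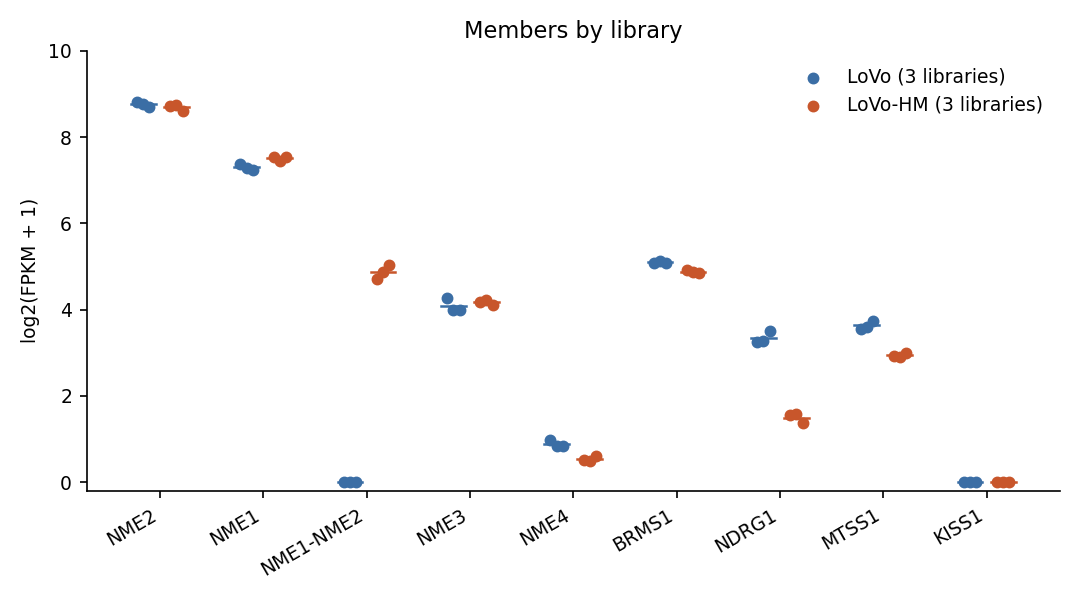
Expression of the 9 members in each library on the log2(FPKM + 1) scale, LoVo in blue and LoVo-HM in orange. Each point is 1 library and the short line is the group mean. NME2 and NME1 sit highest, NME1-NME2 leaves 0 only in LoVo-HM, NDRG1 and MTSS1 drop in LoVo-HM, and KISS1 is at 0 throughout.

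**Figure D2:**
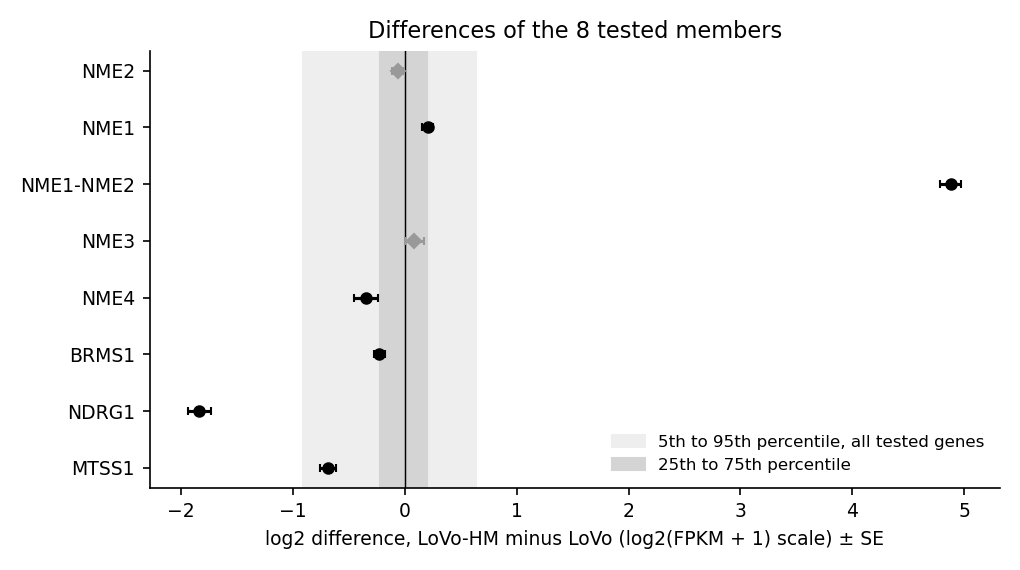
Log2 difference, LoVo-HM minus LoVo, of the 8 tested members, with bars of ± 1 SE. Black circles passed the limma threshold, grey diamonds did not, and the shaded bands span the 25th to 75th and the 5th to 95th percentile of all tested genes. NME1-NME2 (4.88) and NDRG1 (-1.84) lie outside the wider band, which runs from -0.91 to 0.63.

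NME1, NME2 and their readthrough cannot be read as separate genes without looking at the sequence they share. All 3 lie on the forward strand of chromosome 17 in GRCh38: NME1 (ENSG00000239672) at 51153536 to 51162428, NME2 (ENSG00000243678) at 51165435 to 51171747 and NME1-NME2 (ENSG00000011052) at 51153590 to 51171744. A gap of 3006 bases separates NME1 from NME2, and the readthrough runs across it. In GENCODE 29 the readthrough has 3 transcripts with 1241 exonic bases in all, of which 638 are also NME1 exon, 603 are also NME2 exon and 0 are its own. What is its own is 1 splice junction of the 10 in its transcripts, which joins the NME1 exon ending at 51161272 to the NME2 exon starting at 51166827. The junction is shown because a fragment has to cross it, or have an end on each side of it, to tell the readthrough from its parents. Below, the 25 bases before the junction are in lower case and the 25 bases after it are in capitals, first for the readthrough and then for NME1's own junction from the same exon end, which continues at 51161728.
NME1-NME2 junction: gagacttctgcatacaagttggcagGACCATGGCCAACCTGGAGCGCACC
NME1 junction: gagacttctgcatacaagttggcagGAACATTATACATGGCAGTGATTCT

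Past the junction the readthrough enters the NME2 start-codon exon, which resembles the start-codon exon of NME1. The first 25 bases of these exons follow, with the 5 bases at which they differ in capitals.
NME1 start-codon exon: AaccatggccaacTGTgagcgTacc
NME2 start-codon exon: GaccatggccaacCTGgagcgCacc

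Over 456 coding bases of 1 transcript each, NME1 and NME2 were identical at 80.9% of positions, with a longest identical run of 23 bases. The readthrough has far more sequence in common with its parents. Of the windows of 100 bases along the 3 readthrough transcripts, 88.3% to 91.5% also occur in a transcript of NME1 or NME2. How the authors' counting split fragments over this locus is not given in the sources used here, and the values of the 3 rows are uncertain to that extent.

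NME1 and the readthrough also start from the same promoter in RefSeq (GRCh38.p14): their windows of 250 bases before and 50 bases after the start are identical, at chr17:51153309-51153608 on the forward strand. The window is shown because these are the NME models that were higher in LoVo-HM.
NME1 and NME1-NME2 promoter: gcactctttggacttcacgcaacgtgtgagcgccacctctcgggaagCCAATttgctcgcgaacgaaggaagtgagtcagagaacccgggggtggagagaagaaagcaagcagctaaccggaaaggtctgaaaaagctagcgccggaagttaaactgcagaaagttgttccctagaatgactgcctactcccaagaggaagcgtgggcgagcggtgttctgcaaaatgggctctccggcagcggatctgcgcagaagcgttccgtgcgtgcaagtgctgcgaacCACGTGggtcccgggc
Capitals mark a CCAAT box at -203 and an E-box, CACGTG, at 35, both counted from the start. On either strand, CCAAT occurs in 34.6% of the 34796 promoter windows of the RefSeq table and CACGTG in 7.2%. The E-box is the motif read by MYC and related factors, and it includes the shorter ACGTG found in 21.4% of windows. The GC box, GGGCGG, present in 44.9% of windows, has 0 matches here, while the 3 RefSeq windows of NME2 hold 1, 3 and 4 matches. Of the 9 members 7 have a window in that table. These matches describe the letters only.

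NME1, which encodes the A subunit of the mixed NME1 and NME2 enzyme complex, was at 164.6, 155.8 and 150.6 FPKM in the LoVo libraries and at 185.9, 173.1 and 183.8 FPKM in LoVo-HM. The lowest LoVo-HM library lay above the highest LoVo library. The means were 157 ± 7.08 FPKM in LoVo, against 181 ± 6.86 FPKM in LoVo-HM (SD, n = 3 each), a rise of 15.3%, with a log2 difference of 0.20 ± 0.048 (SE, limma adjusted p = 0.00831). That difference lies at the 75th percentile of all tested genes, which is 0.20.

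NME2 encodes the B subunit, which is also reported to bind DNA at the MYC promoter, and it was the most abundant member. Its level was 446.5, 433.4 and 414.8 FPKM in LoVo, against 423.7, 425.1 and 390.6 FPKM in LoVo-HM. The groups overlapped. Means of 432 ± 15.97 and 413 ± 19.5 FPKM (SD, n = 3) gave a log2 difference of -0.06 ± 0.047 (SE, limma adjusted p = 0.305). Only quantile normalization among the alternatives tried placed NME2 past the threshold, as lower (-0.22, limma adjusted p = 0.000754).

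NME1-NME2 was listed at 0 FPKM in LoVo libraries 1, 2 and 3, and at 25.2, 28.4 and 31.9 FPKM in LoVo-HM. All 3 LoVo-HM values were well clear of 0 and within 1.26-fold of each other. On the log2(FPKM + 1) scale the difference was 4.88 ± 0.094 (SE, limma adjusted p = 2.68e-09), and it grew to 8.15 with a pseudocount of 0.1, so its size is set by the pseudocount and is not a fold change. The row passed the filter through its LoVo-HM values alone, and its LoVo values have no spread. The SE and the p-value therefore add nothing to the listed values. Without counts, a value listed at 0 can also be a failed estimate, and NME1 and NME2, with all the exons of the readthrough between them, were abundant in the same libraries. Among all rows listed at 0 in every LoVo library, 1 reached as high a LoVo-HM mean, and that is NME1-NME2 itself. Rows just above 0 fall outside this count: the mean of LRRN3 went from 0.018 to 32.2 FPKM and that of KRT36 from 0.018 to 27.9 FPKM.

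The table holds 101 rows whose symbol joins 2 other symbols of the table, as readthrough genes do, and they show how steady such rows are. Of these, 25 were at 0 in all 6 libraries, and 35 had a 0 beside other values within a group. Of the 42 that were tested, 4 were higher in LoVo-HM, 1 was lower and 37 did not pass. There were 12 with a group mean of at least 5 FPKM, and 7 of these varied more than 2-fold between libraries of 1 group or had a 0 beside other values. SENP3-EIF4A1 was at 3.21, 84.1 and 17.6 FPKM in LoVo and at 18.1, 68.0 and 21.3 FPKM in LoVo-HM. HNRNPUL2-BSCL2 was at 14.6, 5.62 and 0 FPKM in LoVo and at 10.03, 12.05 and 16.9 FPKM in LoVo-HM. Libraries of the same line thus differed widely for these 2 rows, but not for all. PPT2-EGFL8 was at 3.98, 4.39 and 4.03 FPKM in LoVo and at 5.47, 5.55 and 6.16 FPKM in LoVo-HM. IQCJ-SCHIP1 was at 6.08, 5.61 and 5.29 FPKM in LoVo and at 4.06, 5.25 and 4.09 FPKM in LoVo-HM. NME1-NME2 had rank 3 by its LoVo-HM mean, its 3 LoVo-HM libraries lay close together, and it was the 1 readthrough row at 0 in a whole group and at 5 FPKM or more in the other. Among the 9690 other rows that reached 5 FPKM in either group, 7 were at 0 in a whole group, in 6 of them LoVo. What part the assignment of shared fragments plays in the NME1-NME2 values was not tested.

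**Figure D3:**
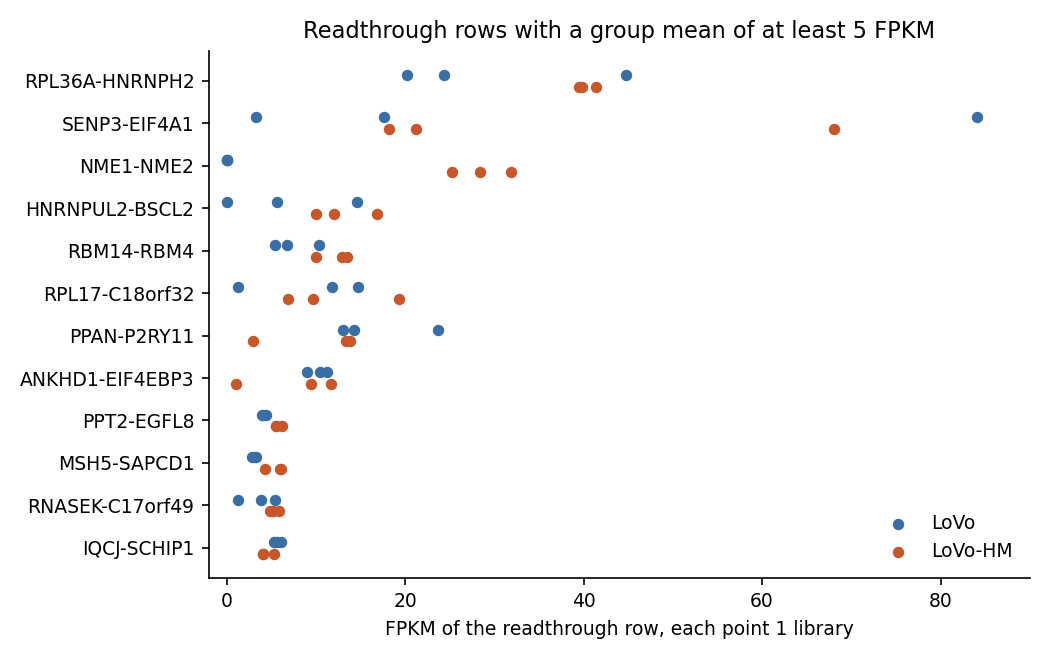
FPKM in each library of the 12 readthrough rows with a group mean of at least 5 FPKM, LoVo in blue and LoVo-HM in orange, with 1 point for each library. Rows such as SENP3-EIF4A1 spread widely within a line, and rows such as PPT2-EGFL8 stay close together. NME1-NME2 sits at 0 in 3 LoVo libraries and between 25.2 and 31.9 FPKM in LoVo-HM.

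The 3 rows were also summed, because they share fragments. The sum was 611.1, 589.2 and 565.4 FPKM in LoVo, against 634.8, 626.6 and 606.4 FPKM in LoVo-HM. The groups overlapped, since the lowest LoVo-HM library fell below the highest LoVo library. The mean rose from 589 ± 22.9 to 623 ± 14.6 FPKM (SD, n = 3), a difference of 34.0 FPKM (two-sided exact permutation p = 0.2, where 0.1 is the smallest that 3 against 3 libraries allow). With the 3 rows replaced by their sum and the table refitted, the log2 difference was 0.08 ± 0.040 (SE, limma adjusted p = 0.133). In that fit 44.9% of 14485 rows were called. Scaling every library to the same total FPKM moved the sum to 0.11 and past the threshold (limma adjusted p = 0.0358).

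Adding levels per length counts the readthrough more heavily than its fragments warrant if all exons of a model set that length. The readthrough then has 1241 bases, against 3438 in NME1 and 2632 in NME2. Single transcripts do not give that order. They have 894 to 1193 bases in the readthrough, 510 to 1645 in NME1 and 554 to 866 in NME2. The counter is not given, so the length behind each FPKM value is unknown, and weighting by exon length is an assumption. Weighted by exon length, the 3 rows (FPKM times exon length in kilobases) came to 1676 ± 65.9 in LoVo and 1745 ± 43.0 in LoVo-HM (SD, n = 3, exact permutation p = 0.2, log2 difference 0.06, limma adjusted p = 0.261). NME1 plus NME2 without the readthrough came to 589 ± 22.9 FPKM in LoVo, against 594 ± 17.9 FPKM in LoVo-HM (SD, n = 3, exact permutation p = 0.8, log2 difference 0.01, limma adjusted p = 0.811). None of these sums fell in LoVo-HM.

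The make-up of the sum differed more than its size. The readthrough made up 3.98, 4.54 and 5.26% of the summed FPKM in the LoVo-HM libraries, or 2.03 ± 0.288% (SD, n = 3) of the sum weighted by exon length. NME2 was 2.71, 2.78 and 2.75 times NME1 in the LoVo libraries, and 2.28, 2.46 and 2.12 times NME1 in LoVo-HM. These ratios did not overlap between the groups (means of 2.75 ± 0.035 and 2.29 ± 0.165, SD, n = 3, exact permutation p = 0.1, the smallest possible). The whole readthrough level was also added to each parent, unweighted by length. NME1 plus readthrough was then at 157 ± 7.08 FPKM in LoVo, against 209 ± 7.25 FPKM in LoVo-HM (SD, n = 3, exact permutation p = 0.1). Of that rise of 52.5 FPKM, 28.5 FPKM is the readthrough itself. NME2 plus readthrough was at 432 ± 15.97 and 442 ± 16.7 FPKM (SD, n = 3, exact permutation p = 0.5).

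**Figure D4:**
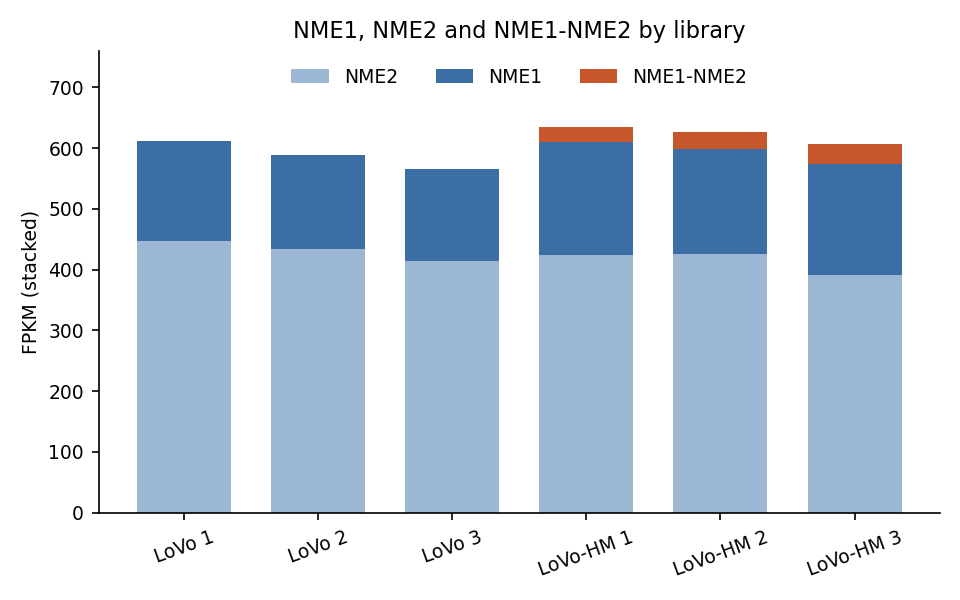
Stacked FPKM of NME2, NME1 and NME1-NME2 in each of the 6 libraries, with bars from 0. The full height is the sum of the 3 rows, 565.4 to 611.1 FPKM in LoVo, against 606.4 to 634.8 FPKM in LoVo-HM, and the readthrough segment appears in LoVo-HM alone.

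The other 2 NME members are far less abundant. NME3 (ENSG00000103024, chromosome 16, 1770286 to 1771730, reverse strand), whose product sits on the outer mitochondrial membrane, was at 18.4, 14.9 and 14.8 FPKM in LoVo and at 17.05, 17.8 and 16.2 FPKM in LoVo-HM. The groups overlapped, with means of 16.03 ± 2.05 and 17.01 ± 0.799 FPKM (SD, n = 3) and a log2 difference of 0.09 ± 0.087 (SE, limma adjusted p = 0.45). NME4 (ENSG00000103202, chromosome 16, 396725 to 410367, forward strand) encodes the kinase targeted to mitochondria, and it was close to the limit for testing. It was at 0.965, 0.791 and 0.790 FPKM in LoVo and at 0.433, 0.401 and 0.523 FPKM in LoVo-HM. Each LoVo library lay above each LoVo-HM library. The means were 0.849 ± 0.101 and 0.452 ± 0.063 FPKM (SD, n = 3), a log2 difference of -0.35 ± 0.107 (SE, limma adjusted p = 0.0275). The call did not hold when LoVo replicate 1, 2 or 3 was left out (limma adjusted p = 0.0895, 0.0526 and 0.0531) or when LoVo-HM replicate 1 or 2 was (0.0687 and 0.0718). In addition, 15.6% of NME4's exonic bases lie in exons of DECR2, a fatty acid oxidation gene on the same strand that was at 11.7 FPKM in LoVo, against 15.2 FPKM in LoVo-HM.

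In order of LoVo level, a quantity per length, the NME models ran NME2, NME1, NME3, NME4 and NME1-NME2, and the ranges of neighbours in this order did not overlap. In LoVo-HM the readthrough, at 28.5 ± 3.34 FPKM (SD, n = 3), stood between NME1 and NME3. Of the 5 other NME genes, NME6 and NME7 were tested. NME6 went from 6.42 ± 0.79 to 5.12 ± 0.279 FPKM (SD, n = 3, log2 difference -0.27, limma adjusted p = 0.0403), a call that was lost when any library other than LoVo replicate 3 was left out (limma adjusted p from 0.0609 to 0.13). NME7, found at the centrosome, was at 6.81 ± 1.28 and 8.30 ± 1.3 FPKM (log2 difference 0.26, limma adjusted p = 0.169). NME5, NME8 and NME9 were too low to test, and the first 2 were at 0 in all 6 libraries. The median of the 2 tested was -0.01.

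The nucleotide enzymes around the NME kinases were tested in full, 34 of 34. Of these 11 were higher in LoVo-HM, 6 were lower and 17 did not pass, with a median log2 difference of 0.06. The counts of this list and of those below stand beside 21.8% higher and 23.1% lower over all tested genes. Those with the smallest p serve thymidine and deoxynucleotide supply and were higher. TK1, thymidine kinase, rose from 60.9 ± 0.328 to 98.3 ± 7.44 FPKM (SD, n = 3, log2 difference 0.68, limma adjusted p = 2.56e-05). RRM2, a ribonucleotide reductase subunit, rose from 48.2 to 73.0 FPKM (0.59, limma adjusted p = 6.66e-05). TYMS, thymidylate synthase, rose from 112 to 146 FPKM (0.38, limma adjusted p = 7.91e-05). These enzymes are tied to S phase, and 8 of 8 markers of dividing cells were also higher in LoVo-HM, their summed level being 513 to 517 FPKM in LoVo, against 622 to 653 FPKM in LoVo-HM. Their part in the NME and nucleotide results was not tested.

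Reported NME partners, such as the SET complex in which NME1 nicks DNA and the GTPases and dynamins that it supplies with GTP, gave 9 higher, 3 lower and 6 not past of 18 tested (19 listed), with a median of 0.14. HMGB2, a chromatin protein of the SET complex, rose from 107 ± 6.87 to 183 ± 2.05 FPKM (SD, n = 3, log2 difference 0.77, limma adjusted p = 4.92e-06). PARP1, a DNA break sensor, rose from 110 to 143 FPKM (0.38, limma adjusted p = 4.41e-05), as did GAPDH, the glycolytic enzyme, from 2097 to 2636 FPKM (0.33, limma adjusted p = 8.91e-05). TIAM1, an activator of RAC1 that binds NME1, fell from 4.38 ± 0.399 to 2.42 ± 0.0734 FPKM (SD, n = 3, log2 difference -0.65, limma adjusted p = 0.000352).

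BRMS1 (ENSG00000174744, chromosome 11, 66337333 to 66345125, reverse strand) encodes a subunit of SIN3-HDAC corepressor complexes. It was at 33.1, 34.2 and 32.7 FPKM in LoVo and at 29.02, 28.2 and 27.7 FPKM in LoVo-HM. The groups did not overlap, and the spread within each was small. The mean fell by 15.1%, from 33.3 ± 0.796 to 28.3 ± 0.666 FPKM (SD, n = 3, log2 difference -0.23 ± 0.047 SE, limma adjusted p = 0.00454). A difference of this size is common in these data: the 25th percentile of all tested genes was also -0.23.

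Of the 16 genes listed for the complex, all were tested, and 7 were higher, 1 lower and 8 not past, with a median of 0.17. The deacetylase HDAC1 rose from 66.4 ± 1.42 to 75.1 ± 1.37 FPKM (SD, n = 3, log2 difference 0.18, limma adjusted p = 0.00795). SAP30, a SIN3-binding subunit, rose from 12.5 to 19.8 FPKM (a log2 change of 0.62, limma adjusted p = 0.00256), and ING1, which reads methylated histone H3, from 8.95 to 11.7 FPKM (0.35, limma adjusted p = 0.00359). SINHCAF, a further SIN3 subunit, fell as BRMS1 did, from 88.1 to 76.8 FPKM (-0.20, limma adjusted p = 0.00348). The count of higher genes was 4 without LoVo replicate 1 and 4 without LoVo replicate 3, and the count of lower genes was 2 without LoVo-HM replicate 3.

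KISS1 (ENSG00000170498, chromosome 1, 204190341 to 204196486, reverse strand) encodes the kisspeptin precursor. It was listed at 0 FPKM in all 6 libraries, as were 14.8% of all rows, so no comparison was possible and the depth that a 0 stands for is unknown. Its receptor gene KISS1R was also at 0 in all 6. Of the 10 genes listed for the receptor, for peptide processing and for reported KISS1 transcription, 5 were tested, with 1 higher, 1 lower, 3 not past and a median of -0.04. MMP14, a membrane protease reported to cleave kisspeptin, fell from 13.0 ± 0.304 to 9.61 ± 0.127 FPKM (SD, n = 3, log2 difference -0.40, limma adjusted p = 0.00053). SP1, a transcription factor with MED23 reported at the KISS1 promoter, was called higher (0.18, limma adjusted p = 0.0347), and that call was lost on leaving out LoVo replicate 1, 2 or 3 or LoVo-HM replicate 2 or 3. MED23 (0.16, limma adjusted p = 0.098) and the prohormone protease FURIN (-0.11, limma adjusted p = 0.291) did not pass.

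NDRG1 (ENSG00000104419, chromosome 8, 133237171 to 133302022, reverse strand) showed the largest decrease of any member. Its level was 8.48, 8.63 and 10.3 FPKM in LoVo, against 1.97, 1.97 and 1.57 FPKM in LoVo-HM. The groups were far apart relative to their spread. The LoVo mean of 9.13 ± 0.999 FPKM was 4.97 times the LoVo-HM mean of 1.84 ± 0.229 FPKM (SD, n = 3), and on the log2(FPKM + 1) scale, which understates changes of low genes, the difference was -1.84 ± 0.10 (SE, limma adjusted p = 1.45e-06). Only 187 genes, NDRG1 included, were called lower with a log2 difference at or below this one. NDRG1 and NME1-NME2 were the 2 members among the 950 called genes with a log2 difference of at least 1 in size. For NME1-NME2 that size is set by the pseudocount.

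NDRG1 protein is phosphorylated by the kinases SGK1, SGK2 and SGK3 and by GSK3. In the list of NDRG relatives and these kinases, 7 of 8 genes were tested, with 0 higher, 3 lower and 4 not past, and a median of -0.15. SGK1 fell much further than NDRG1 itself: it was at 49.6, 48.9 and 51.2 FPKM in LoVo and at 2.49, 2.04 and 2.41 FPKM in LoVo-HM (means of 49.9 ± 1.17 and 2.31 ± 0.244, SD, n = 3, log2 difference -3.94, limma adjusted p = 1.71e-09). SGK3 fell from 4.33 to 3.19 FPKM (-0.35, limma adjusted p = 0.00543). Among the relatives, NDRG3 was at 21.1 ± 1.75 and 18.2 ± 0.306 FPKM (SD, n = 3, -0.20, limma adjusted p = 0.0394), a call lost on leaving out LoVo replicate 3 or any LoVo-HM replicate. NDRG2, itself reported as a suppressor, was at 17.8 and 15.9 FPKM (-0.15, limma adjusted p = 0.197).

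Because NDRG1 RNA is induced by hypoxia, 25 hypoxia factors and hypoxia-induced genes were read beside it. Of 23 tested, 2 were higher, 6 lower and 15 not past, with a median of -0.19. Over all tested genes 21.8% were higher and 23.1% lower, so these counts alone do not set the list apart. P4HA2, a collagen prolyl hydroxylase, fell from 20.1 ± 0.0781 to 10.1 ± 1.3 FPKM (SD, n = 3, log2 difference -0.93, limma adjusted p = 3.87e-05). LOX, which crosslinks collagen, fell from 2.92 to 1.19 FPKM (-0.84, limma adjusted p = 0.000101), and the angiogenic factor VEGFA from 9.81 to 6.91 FPKM (-0.45, limma adjusted p = 0.00166). EGLN1, the prolyl hydroxylase that marks HIF1A for destruction and is itself induced by hypoxia, rose from 18.2 to 25.9 FPKM (0.49, limma adjusted p = 0.000111). Without LoVo-HM replicate 3 the count of lower genes was 10, and without LoVo-HM replicate 1 the count of higher genes was 1. The oxygen supply of the cultures is not given in the labels, and its part in these values was not tested.

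MTSS1 (ENSG00000170873, chromosome 8, 124550790 to 124728429, reverse strand), named as missing in metastasis, encodes an inverse BAR domain protein that curves the plasma membrane and binds actin. It was at 10.8, 11.2 and 12.4 FPKM in LoVo and at 6.63, 6.52 and 7.01 FPKM in LoVo-HM. All LoVo libraries lay above all LoVo-HM libraries. The LoVo mean of 11.5 ± 0.834 FPKM was 1.71 times the LoVo-HM mean of 6.72 ± 0.256 FPKM (SD, n = 3), a log2 difference of -0.69 ± 0.072 (SE, limma adjusted p = 8.56e-05). Of its exonic bases 8.76% lie in exons of NDUFB9, a respiratory chain gene on the opposite strand at 143 FPKM in LoVo, against 126 FPKM in LoVo-HM. Whether fragments were counted by strand is not given in the sources used here.

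Of 18 genes for inverse BAR proteins and actin assembly, 17 were tested, with 3 higher, 8 lower and 6 not past, and a median of -0.17. ARPC2, a subunit of the Arp2/3 complex that branches actin filaments, fell from 177 ± 2.3 to 99.1 ± 2.51 FPKM (SD, n = 3, log2 difference -0.83, limma adjusted p = 5.4e-07). WASF3, an activator of that complex, fell from 3.02 to 0.934 FPKM (-1.06, limma adjusted p = 2.82e-05). Its relative WASF1 was higher (0.31, limma adjusted p = 0.00623), as was the complex subunit ACTR2 (0.14, limma adjusted p = 0.0409). The subunits ACTR3 and ARPC3 did not pass. WASF1, ACTR2, ACTR3 and ARPC3 are named here after their values were seen. BAIAP2L1, another inverse BAR protein, fell from 25.9 to 17.9 FPKM (-0.51, limma adjusted p = 0.000432), and EPS8, an actin capping protein, from 57.1 to 45.6 FPKM (-0.32, limma adjusted p = 0.00182). The closest relative of MTSS1, given in the table as MTSS1L, went the other way, from 11.4 ± 0.611 to 13.9 ± 0.476 FPKM (SD, n = 3, log2 difference 0.27, limma adjusted p = 0.00855), and is named here after its value was seen.

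MTSS1 has also been reported as a Hedgehog-responsive gene, and the Hedgehog genes moved in both directions: of 8 tested of 10, 3 were higher, 3 lower and 2 not past, with a median of 0.10. PTCH1, the Hedgehog receptor and a standard target gene of the pathway, rose from 3.30 ± 0.207 to 23.3 ± 1.37 FPKM (SD, n = 3, log2 difference 2.50, limma adjusted p = 2.23e-08). The transcription factor gene GLI3 rose from 3.12 to 19.4 FPKM (2.31, limma adjusted p = 9.78e-08). The ligand gene SHH fell from 4.50 to 0.299 FPKM (-2.08, limma adjusted p = 1.71e-06), and SMO, the signal transducer, from 18.3 to 14.6 FPKM (-0.31, limma adjusted p = 0.00208).

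Among 31 other reported metastasis suppressors, 23 were tested, with 10 higher, 7 lower and 6 not past, and a median of 0.16. These genes, like the members, did not move one way. SERPINB5, maspin, fell from 26.8 ± 0.88 to 2.30 ± 0.188 FPKM (SD, n = 3, log2 difference -3.08, limma adjusted p = 5.87e-09), and CDH1, E-cadherin, from 48.0 to 7.91 FPKM (-2.46, limma adjusted p = 5.9e-09). TPM1, a tropomyosin of stress fibres, rose from 38.0 to 75.7 FPKM (a log2 change of 0.98, limma adjusted p = 4.1e-07), and CDH11, a mesenchymal cadherin, from 0.671 to 4.14 FPKM (1.62, limma adjusted p = 4.04e-06).

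**Figure D5:**
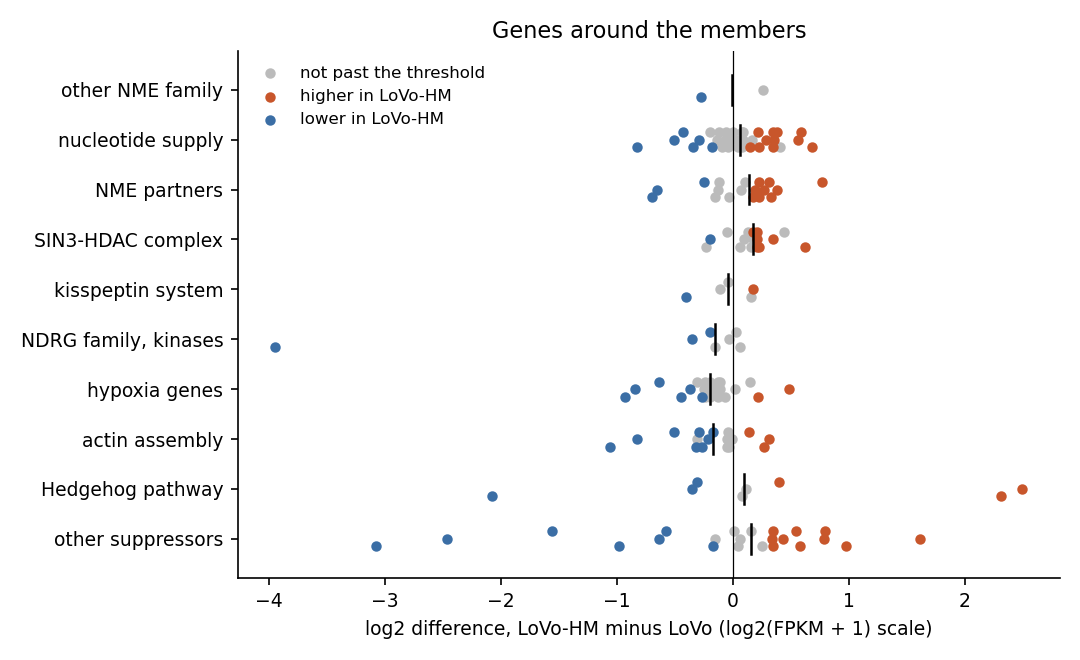
Log2 difference, LoVo-HM minus LoVo, of each tested gene in the 10 companion lists, with 1 point for each gene, orange where called higher, blue where called lower and grey where not past the threshold. Black ticks are list medians, which run from -0.19 for the hypoxia genes to 0.17 for the SIN3-HDAC complex.

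The genes beside the members were also read, as the 2 nearest tested genes on either side and any that overlap. Around the 7 loci, 31 neighbouring or overlapping genes were tested, and 6 were higher, 8 lower and 17 not past. Thus 45.2% were called, beside 44.9% of all tested genes. Next to NME2, at a distance of 5678 bases, MBTD1, a reader of methylated histones, rose from 6.48 ± 0.499 to 9.26 ± 0.29 FPKM (SD, n = 3, log2 difference 0.46, limma adjusted p = 0.00103), whereas SPAG9, TOB1 and UTP18 did not pass (limma adjusted p = 0.127, 0.818 and 0.0979). RIN1, a RAB5 activator 493 bases from BRMS1, fell from 7.34 ± 0.844 to 3.05 ± 0.69 FPKM (SD, n = 3, -1.05, limma adjusted p = 0.000236). Next to NDRG1, at 152826 bases, the sialyltransferase gene ST3GAL1 fell from 2.64 to 1.46 FPKM (-0.56, limma adjusted p = 0.00238), and the other 3 neighbours of NDRG1 did not pass. Called neighbours also went against their member: B4GAT1, 247 bases from BRMS1, was higher (0.26, limma adjusted p = 0.0142). RAB11FIP3 (0.27, limma adjusted p = 0.00383) and DECR2 by NME4, and SQLE by MTSS1, were higher beside members that were lower. TMEM8A and CAPN15 by NME4, SLC29A2 by BRMS1 and NDUFB9 by MTSS1 were lower, as their members were. No locus had all its neighbours called in the direction of its member. Whether whole stretches of chromosome moved with the members was not tested.

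Genes whose pattern over the 6 libraries was most like each member were found as the smallest Euclidean distance between centred log2(FPKM + 1) values. For NME1-NME2 these were LRRN3 (distance 0.225) and KRT36 (0.295), for NDRG1 they were DDR1 (0.168) and MAP7 (0.18), and for MTSS1 they were SYPL1 (0.0735) and LGR4 (0.0758). NME1 was most like HDLBP (0.0394) and NUP107 (0.0427), and BRMS1 was most like PODXL (0.0451) and LGALS3BP (0.0453). The nearest of NME2 were HGH1 (0.0448) and CCDC124 (0.0461), those of NME3 EIF3F (0.0634) and AKNA (0.0708), and the nearest of NME4 was RAB11FIP5 (0.0627). The distances rest on 6 libraries in 2 groups, so genes with a like difference between the groups come out as near. For NME1-NME2 that difference is set by the pseudocount.

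The label of colorectal cancer cells was read against 14 colon and intestinal markers. Of these 4 passed the filter and 10 were too low to test, so most of them did not bear out that label. CDX2 and KRT20 were among the 3 higher in LoVo-HM, HNF4A was lower, and CDX1, VIL1, GPA33 and PHGR1 were at 0 in all 6 libraries. The summed level of the 14 was 15.3 to 16.01 FPKM in LoVo, against 21.9 to 24.5 FPKM in LoVo-HM. Of 5 broad epithelial markers 3 were higher and 2 lower: KRT8, KRT18 and KRT19 rose, while EPCAM fell from 128 ± 1.99 to 51.7 ± 2.6 FPKM (SD, n = 3) and CDH1 fell as given above. Their summed level, 2008 to 2063 FPKM in LoVo, against 2599 to 2702 FPKM in LoVo-HM, is mostly keratin. Of 6 basal and stratified markers 3 were lower (TP63, KRT6A and SOX2) and 3 higher (KRT5, KRT14 and KRT17). TP63 fell from 36.1 ± 1.71 to 0.296 ± 0.0605 FPKM, whereas KRT5 went from 39.9 ± 1.32 up to 395 ± 10.7 FPKM (SD, n = 3), and the 6 summed to 254 to 264 FPKM in LoVo, against 457 to 471 FPKM in LoVo-HM. The 7 fibroblast markers summed to 4.83 to 6.36 FPKM in LoVo, against 4.92 to 5.75 FPKM in LoVo-HM, nearly all of it COL1A1, which did not pass the test, with COL1A2 at 0 in all 6 libraries. The 6 immune markers summed to 3.84 to 4.02 FPKM in LoVo, against 2.90 to 3.30 FPKM in LoVo-HM, mostly CD68, which was lower in LoVo-HM (limma adjusted p = 0.015), with PTPRC at 0 in all 6. The 4 endothelial markers summed to at most 0.109 FPKM in any library, with KDR and PECAM1 at 0 throughout. The part of any of these markers in the members' results was not tested. Total FPKM was 424624 to 439082 per library, and read depth is unknown because FPKM holds no counts.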

How the data were processed

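Per the labels' protocols, Trizol RNA of 3 LoVo and 3 LoVo-HM samples went into TruSeq RNA libraries (Illumina). Expression was deposited by the authors as FPKM, with 6 library columns in 1 table. The submitters' processing notes name GRCh38 as the build. The aligner, counter, annotation and strand setting were not given in the sources used here. Values were used as deposited. Of the rows, 19974 carry an Ensembl identifier and all matched GENCODE 29, from which positions and exons were taken. The other 4606 rows, without a symbol, stayed in the fit.

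Rows with a mean of at least 0.5 FPKM were tested as log2(FPKM + 1) with limma 3.58.1 (R 4.3.3), with an intensity trend, two-sided, and Benjamini-Hochberg adjustment over all 14487 rows. Low values below 0.3 FPKM in 1554 genes showed no steps worth 1 read (3.35% of ratios fell in the fullest bin, 0.05 log2 units wide), so depth is unknown and no count model was used. Single sums were compared by an exact permutation test over libraries (SciPy 1.17.1). The fit was tested on simulated data.

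The members and lists were chosen with earlier results of these data known. The members and the sum are named whatever their result, as are up to 4 genes of each list with the smallest p and the 2 genes most like each member. A few genes that this rule names are not reported here. ADSS2 and MTSS2 were matched by their older symbols, ADSS and MTSS1L. Alternatives were other pseudocounts, filters, scalings and variance settings, a replicate block, leaving out each library, and, added after seeing the data, leaving out rows without a symbol.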

Additional observations from a re-analysis of the deposited data

How the results depend on the processing

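Over 17 alternatives, BRMS1 (-0.25 to -0.20), MTSS1 (-0.76 to -0.64), NDRG1 (-2.25 to -1.76) and NME1 (0.17 to 0.24) kept their direction and their call. NME1-NME2 (4.80 to 8.15) did too, but this says nothing of its stability. With every LoVo value at 0 its direction could not change, and its size follows the pseudocount. The labels give replicate numbers only, so it is unknown whether same-numbered libraries were paired. Their deviations from the group means correlated at -0.007, 0.022 and 0.026, and the main fit treated them as unpaired. With a replicate block the summed NME1, NME2 and NME1-NME2 stayed at 0.08 (limma adjusted p = 0.071), NME4 lost its call (limma adjusted p = 0.0555), and 3131 genes were higher and 3328 lower. Scaling to equal totals moved the sum to 0.11 (limma adjusted p = 0.0358). Leaving out 1 library at a time gave 0.05 to 0.11 for the sum, 2532 to 2825 genes higher and 2883 to 3161 lower, and 2 members higher and 3 to 4 lower. At a minimum mean of 2 FPKM, NME4 was not tested.

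Signs turned in 4 cases, all near 0: TOB1 without LoVo replicate 2 (-0.024; 0.069 at most, without LoVo replicate 1), HGH1 with equal totals (0.000195) and without LoVo-HM replicate 3 (0.0126; -0.054 at least, without LoVo-HM replicate 1), and CCDC124 without LoVo-HM replicate 3 (0.000717; -0.057 at least, without LoVo replicate 3). The cause was not tested. Of the other comparisons for single genes and lists, 1583 were counted as the same. For a single gene that means the same direction and side of the threshold, for a list a count within 1.5 times of the main one. A further 68 lost a call, 3 gained one and 22 list counts moved by over 1.5 times or to or from 0. Groups of 3 were not tested for outlying libraries. Read depth is unknown, so no detection limit can be given for a 0.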
